A study of Homo sapiens with 9 samples.

Results

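The 7 chemokine genes described here were the neutrophil-attracting CXC chemokines that sit side by side on chromosome 4 (CXCL1, CXCL2, CXCL3, CXCL5, CXCL6 and IL8, the older symbol of CXCL8) and CCL20 on chromosome 2. They were taken by symbol from RNA-Seq count tables, were found in both tables, and made up 7 of 16008 genes that the tables share. Their levels in these libraries were known when they were chosen, so their fitted changes are given as a description, without p-values. The lists of related genes below were also chosen with earlier results of these data known.

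The libraries came from PC3 xenografts, tumors grown under the skin of immunodeficient NSG male mice (11 weeks old per the series record) from PC3, an established human line of metastatic prostate cancer. Mice received PBS as vehicle, P-DXd (patritumab deruxtecan, an antibody against HER3) or T-DXd (trastuzumab deruxtecan, an antibody against HER2), and both conjugates carry a topoisomerase I inhibitor. The series record gives 5 mg/kg once a week for 5 cycles from a tumor volume of 90 mm3, with tumors taken at endpoint, and the study's methods differ from it in age, starting volume and cycles. There were 3 libraries per group. For each treated library the title and the treatment field name different conjugates. Groups follow the titles here (PDXd-titled, TDXd-titled), and which drug each received is unresolved. The comparison of all 6 treated libraries with PBS does not depend on this.

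ELR chemokines carry a glutamate-leucine-arginine motif just before their first cysteine pair. They act through the receptors CXCR1 and CXCR2, draw neutrophils into tissue and promote angiogenesis. CCL20 instead binds CCR6 and attracts dendritic cells and lymphocytes. Epithelial and tumor cells switch on all of these genes through NF-kB in response to IL-1, TNF or IL-17, and AU-rich elements make many of the messages short-lived. The mouse has no counterpart of IL8.

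In the tables, the 6 ELR genes span 358.8 kb of chromosome 4, in the order IL8, CXCL6, CXCL1, CXCL5, CXCL3 and CXCL2. IL8, CXCL6 and CXCL1 lie on the plus strand and CXCL5, CXCL3 and CXCL2 on the minus strand. The span runs from 74606223, the start of IL8, to 74965010, the end of CXCL2, and CCL20 lies on chromosome 2 at 228678558 to 228682272. These are positions as the tables list them. They are not GRCh38 positions, although the labels name that build.

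The promoters of the ELR genes have a sequence in common that the choice of genes did not use. The longest stretch found in all 6 of them, from 250 bases before to 50 bases after the gene start, is 9 bases long, and it is the core of an NF-kB (kB) binding site. It is given here in capitals with its surroundings, for 5 genes as the 11 bases they share and for CCL20 as the match to a looser pattern. Sequences are from RefSeq (GRCh38.p14), in which all 7 genes were found, and are read on the strand of the gene.
CXCL1 (chr4:73869294-73869344, plus strand): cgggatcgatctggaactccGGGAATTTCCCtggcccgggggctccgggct
CXCL2 (chr4:74099243-74099293, minus strand): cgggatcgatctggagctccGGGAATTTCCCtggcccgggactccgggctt
CXCL3 (chr4:74038738-74038788, minus strand): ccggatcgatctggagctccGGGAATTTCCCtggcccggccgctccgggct
CXCL5 (chr4:73998738-73998788, minus strand): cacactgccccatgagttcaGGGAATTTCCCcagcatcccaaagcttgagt
CXCL6 (chr4:73836568-73836618, plus strand): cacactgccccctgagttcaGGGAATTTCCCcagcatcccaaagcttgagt
IL8 (chr4:73740458-73740506, plus strand): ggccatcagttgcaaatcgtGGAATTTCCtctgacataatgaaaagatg
CCL20 (chr2:227813741-227813790, plus strand): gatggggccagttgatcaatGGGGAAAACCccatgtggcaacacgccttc

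The 11 letters GGGAATTTCCC, searched on both strands, were found in 5 of 7 promoters (CXCL1, CXCL2, CXCL3, CXCL5 and CXCL6) and in 27 of 35116 RefSeq promoters of the same length (0.0769%). The core GGAATTTCC, which lies within them, was also found in IL8 and in 162 promoters in all (0.461%). In these 6 genes the match began 78 to 91 bases before the start. In CCL20 neither was found. With the 5 middle bases left free (GGGNNNNNCC, which also covers the longer site), CCL20 had several matches, of which the one given begins 81 bases before its start, and 58.7% of all promoters had at least 1. The AP-1 letters TGACTCA were found in IL8, 137 bases before its start, and in 4.95% of all promoters. The patterns were chosen after the sequences were seen, and a match describes letters, not binding.

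Some of these promoters were alike over their whole length. Over 250 bases before the start, CXCL5 and CXCL6 were 85.3% identical, CXCL1 and CXCL3 81.4%, CXCL2 and CXCL3 73.3%, and CXCL1 and CXCL2 67.9%. Every other pair of the 7 genes lay between 39.1% and 50.7%. The transcripts of CXCL1, CXCL2 and CXCL3 also share sequence. Of their 50-base stretches, 4.57%, 13.4% and 6.01%, respectively, occur in one of the other genes of this trio. Only a read that lies wholly within shared sequence cannot be assigned with certainty. The study's paired-end reads are longer than 50 bases, so these are not shares of ambiguous reads. CXCL5 and CXCL6 share no such stretch with each other, but 1.17% of those of CXCL5 also occur in GLYR1 and 2.31% of those of CXCL6 in PPBPP1. IL8 and CCL20 share none with any gene.

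Library totals ranged from 54481702 to 125538670 counts, with the lowest PBS total (90761763) above the highest treated total (83721486). PBS replicate 1 stood apart from PBS replicates 2 and 3 (chi-square over genes of 316 and 388 per gene, against 37.5 between the latter). To a lesser degree PDXd-titled replicate 2 stood apart from replicates 1 and 3 (126 and 106, against 39.8 between the latter). TDXd-titled pairs were at 17.2 to 27.8. This statistic grows with depth, which was highest in PBS. Summed over 6 PC3 markers, mostly keratins, levels were 1896 to 2684 CPM in PBS and 3475 to 4040 CPM in treated libraries. The markers did not move alike. KRT8 averaged 461 CPM in PBS, 1124 in PDXd-titled and 1186 in TDXd-titled libraries. CDH1 averaged 241, 273 and 268 CPM, and VIM 320, 313 and 351 CPM. KLK3 and KLK2, markers of luminal prostate cells, were not listed. Mouse reads that align to human genes cannot be told from human reads in the tables. Levels are given as CPM, counts scaled to library size. Nothing beyond an animal code in the titles says that replicates are separate animals, so that p-values measure the spread between these samples.

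All 6 ELR chemokines were lower in residual tumors from both treated groups than in PBS tumors, by 3.13-fold for IL8 to 4.93-fold for CXCL5 on mean CPM over all 6 treated libraries. CCL20 went the other way and was 2.48-fold higher. No member overlapped between treated and PBS libraries. Many other genes did not either: 24.4% of all genes tested were lower and 26.2% higher in every treated library. In bulk tumors, fewer cells that express a gene and less RNA per cell cannot be told apart.

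IL8 and CXCL1 were the most abundant ELR chemokines. IL8 (ENSG00000169429.6), the prototype ELR chemokine and a ligand of both CXCR1 and CXCR2, was 449, 244 and 224 CPM in PBS replicates 1 to 3. It was 122, 88.8 and 117 CPM in PDXd-titled and 95.7, 73.9 and 88.1 CPM in TDXd-titled replicates. The lowest PBS library was 1.84 times the highest treated one, and the ranges of the treated groups overlapped.

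CXCL1 (ENSG00000163739.4), a CXCR2 ligand first isolated as a melanoma growth factor, was 390, 159 and 144 CPM in PBS. It was 62.3, 63.5 and 78.2 CPM in PDXd-titled and 42.4, 47.1 and 48.7 CPM in TDXd-titled libraries. Here the 3 groups formed 3 separate ranges, with TDXd-titled libraries lowest.

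CXCL2 and CXCL3 are close relatives of CXCL1 that also act through CXCR2. CXCL2 (ENSG00000081041.8) was 94.9, 28.4 and 19.0 CPM in PBS, 11.4, 11.7 and 10.6 CPM in PDXd-titled and 10.7, 9.09 and 8.05 CPM in TDXd-titled libraries. CXCL3 (ENSG00000163734.4) was 92.4, 30.9 and 28.5 CPM in PBS, 15.3, 16.1 and 13.8 CPM in PDXd-titled and 9.98, 7.01 and 9.10 CPM in TDXd-titled libraries. The treated groups touched for CXCL2 and were separate for CXCL3. CXCL2 varied most within PBS, with a coefficient of variation of 87.2% and a highest library 4.99 times the lowest.

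CXCL5 and CXCL6 are the pair with the most similar promoters. CXCL5 (ENSG00000163735.6), a CXCR2 ligand of epithelial cells, was 121, 49.7 and 33.0 CPM in PBS, 18.7, 17.2 and 18.4 CPM in PDXd-titled and 10.5, 8.57 and 9.33 CPM in TDXd-titled libraries. CXCL6 (ENSG00000124875.5), which like IL8 binds both receptors, was 137, 75.6 and 81.8 CPM in PBS, 28.7, 32.7 and 25.5 CPM in PDXd-titled and 13.6, 15.1 and 16.7 CPM in TDXd-titled libraries. Both genes formed 3 separate ranges. CXCL6 had the smallest spread of the ELR genes in PBS (coefficient of variation 34.3%) and the widest gap to treatment, with the lowest PBS library 2.31 times the highest treated one.

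CCL20 (ENSG00000115009.7), the single ligand of CCR6 among chemokines, was 39.3, 54.1 and 49.7 CPM in PBS. It was 110, 104 and 133 CPM in PDXd-titled and 117, 122 and 121 CPM in TDXd-titled libraries. Every treated library was above every PBS library, and the treated groups overlapped.

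**Figure D1:**
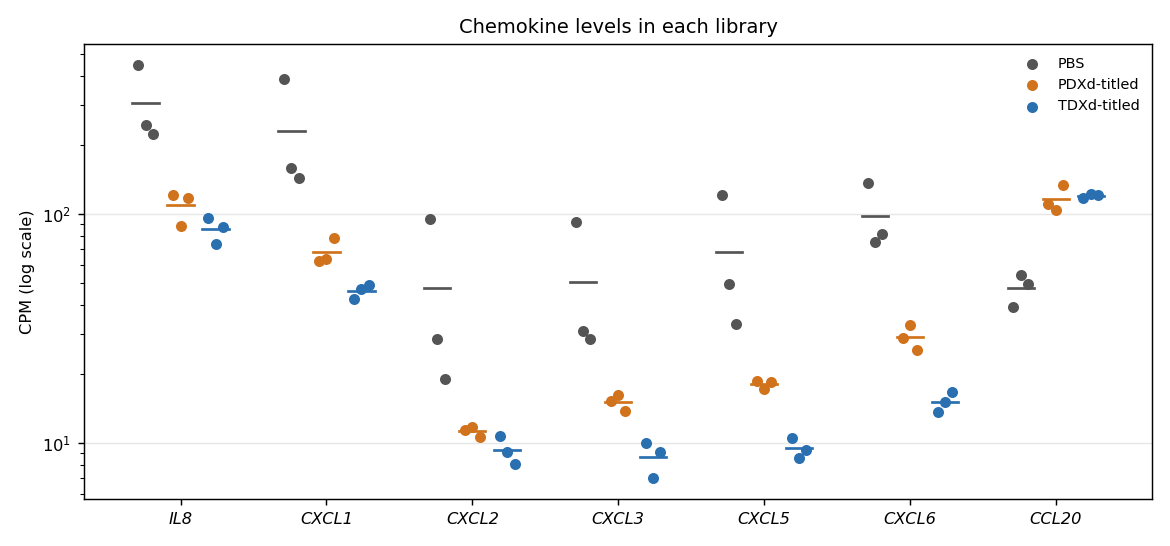
Level of each chemokine in each library, in CPM on a log axis. Each point is a library (3 per group) and each line the mean of its group; the 6 ELR genes are highest in PBS, CCL20 is lowest in PBS, and PBS replicate 1 is the uppermost PBS point for each ELR gene.

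PBS replicate 1 held the highest PBS level of each ELR gene and the lowest of CCL20. Relative to the mean of PBS replicates 2 and 3, it was 4.0 times as high for CXCL2, 3.11 for CXCL3, 2.93 for CXCL5, 2.58 for CXCL1, 1.92 for IL8 and 1.74 for CXCL6, and 0.757 for CCL20. Among all 15070 genes tested with both conjugates against PBS, 14.2% were at least 1.5 times as high in PBS replicate 1 and 17.7% at most 1/1.5 as high. Without this library, log2 fold changes with both conjugates shrank from -2.07 to -1.44 for CXCL1, -2.25 to -1.22 for CXCL2, -2.17 to -1.38 for CXCL3, -2.40 to -1.67 for CXCL5, -2.25 to -1.92 for CXCL6 and -1.68 to -1.28 for IL8. CCL20 moved from 1.29 to 1.18. The directions stayed as they were.

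Fitted with edgeR on the counts, both conjugates against PBS gave log2 fold changes of -1.68 (SE 0.21) for IL8, -2.07 (SE 0.272) for CXCL1, -2.25 (SE 0.40) for CXCL2 and -2.17 (SE 0.329) for CXCL3. CXCL5 was at -2.40 (SE 0.318), CXCL6 at -2.25 (SE 0.177) and CCL20 at 1.29 (SE 0.117). The median over the ELR genes was -2.21, and over all genes tested -0.0179. A gene was called at an adjusted p of at most 0.05 and a fold change of at least 1.5. All 7 members were called, 6 lower and 1 higher, where 31.8% of all genes were called, 17.1% lower and 14.8% higher. Of all genes, 24.4% were lower and 26.2% higher in every treated library than in every PBS library. Since the members were chosen on these values, nothing is read from their count.

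Each treated group was also fitted alone against the same PBS libraries, which the fits share. In PDXd-titled xenografts the ELR genes ranged from -2.09 (CXCL2, SE 0.565) to -1.49 (IL8, SE 0.284) on the log2 scale. In TDXd-titled xenografts they ranged from -2.87 (CXCL5, SE 0.477) to -1.85 (IL8, SE 0.282). CCL20 was at 1.28 (SE 0.152) and 1.31 (SE 0.121). All 7 members were called in each fit, against 25.0% of all genes for PDXd-titled and 28.6% for TDXd-titled xenografts. With any one PDXd-titled library left out, 3 of 7 were called in the PDXd-titled fit, namely CXCL6, IL8 and CCL20. With any one TDXd-titled library left out, 6 of 7 were called in the TDXd-titled fit, all but CXCL2. Without PBS replicate 1, the ELR genes ranged from -1.45 (CXCL6) to -0.98 (CXCL3) in PDXd-titled and from -2.39 (CXCL6) to -1.37 (CXCL2) in TDXd-titled xenografts, with CXCL5 at -2.14 in the latter.

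The conjugates were then set against each other directly. ELR levels were higher in PDXd-titled than in TDXd-titled xenografts, with mean CPM 1.91 times as high for both CXCL5 and CXCL6, 1.73 for CXCL3, 1.48 for CXCL1, 1.27 for IL8 and 1.21 for CXCL2. The ratio for CCL20 was 0.966. On the log2 scale the differences were 0.94 (SE 0.103) for CXCL5, 0.94 (SE 0.113) for CXCL6, 0.79 (SE 0.138) for CXCL3, 0.56 (SE 0.0975) for CXCL1, 0.35 (SE 0.126) for IL8, 0.28 (SE 0.126) for CXCL2 and -0.05 (SE 0.0924) for CCL20. CXCL1, CXCL3, CXCL5 and CXCL6 were higher in every PDXd-titled library than in every TDXd-titled one, as were 4.12% of all genes. CXCL5 and CXCL6 were called higher, as were 0.0273% of all genes (4 of 14653). The members were chosen with these values known, so these calls are a description. Neither gene was called without PDXd-titled replicate 1 or without any one of the TDXd-titled libraries, and CXCL6 was not called with a block on the digit in the animal code.

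**Figure D2:**
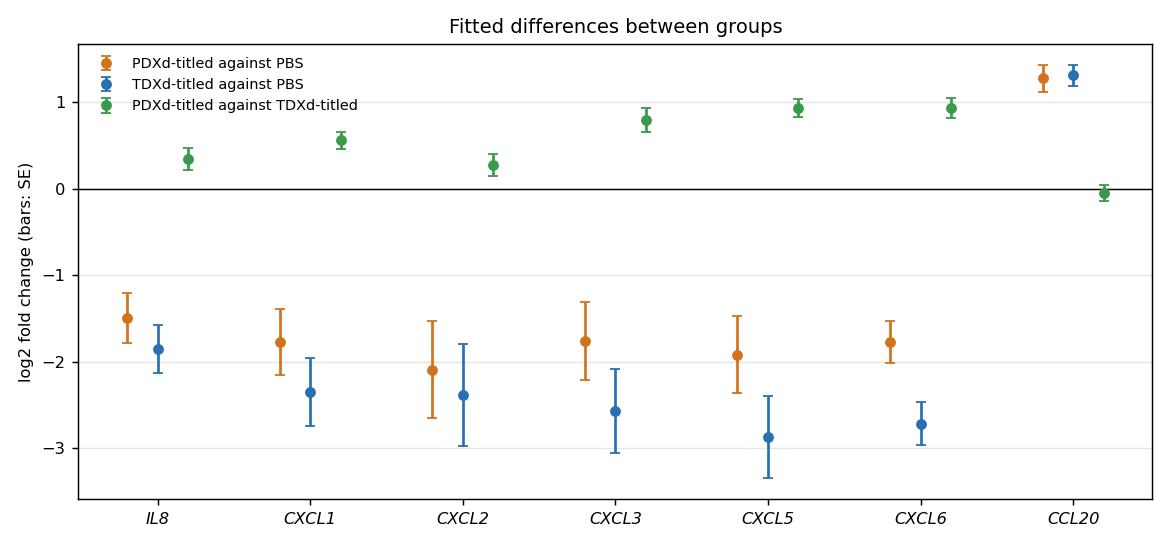
Log2 fold change of each chemokine from edgeR, with bars of 1 SE. The ELR genes lie below 0 against PBS in both treated groups and above 0 for PDXd-titled against TDXd-titled, with CXCL5 and CXCL6 at 0.94, while CCL20 lies above 0 against PBS and at -0.05 between the conjugates.

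Together the ELR genes summed to 800 ± 420 CPM in PBS (SD, n = 3; 530 to 1284), 250 ± 17.9 CPM in PDXd-titled and 174 ± 12 CPM in TDXd-titled xenografts. IL8 contributed the most counts in every group. Its share of the summed counts was 39.6% ± 4.0 in PBS, 43.4% ± 4.36 in PDXd-titled and 49.1% ± 3.19 in TDXd-titled xenografts (SD, n = 3). CXCL1 held 28.2% ± 1.90, 27.1% ± 2.78 and 26.5% ± 3.09. The share of CXCL5 was 6.23% to 9.44% in PBS, 6.98% to 7.47% in PDXd-titled and 5.19% to 5.72% in TDXd-titled libraries. The CXCL5 share was thus lowest in TDXd-titled libraries and did not overlap the other groups, whereas the CXCL6 share, at 7.44% to 9.39% in TDXd-titled libraries and 9.66% to 14.2% in PDXd-titled libraries, was below each PDXd-titled and each PBS value (10.7% to 15.5%). CXCL2 and CXCL3 each held between 3.59% and 7.39% in every library.

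**Figure D3:**
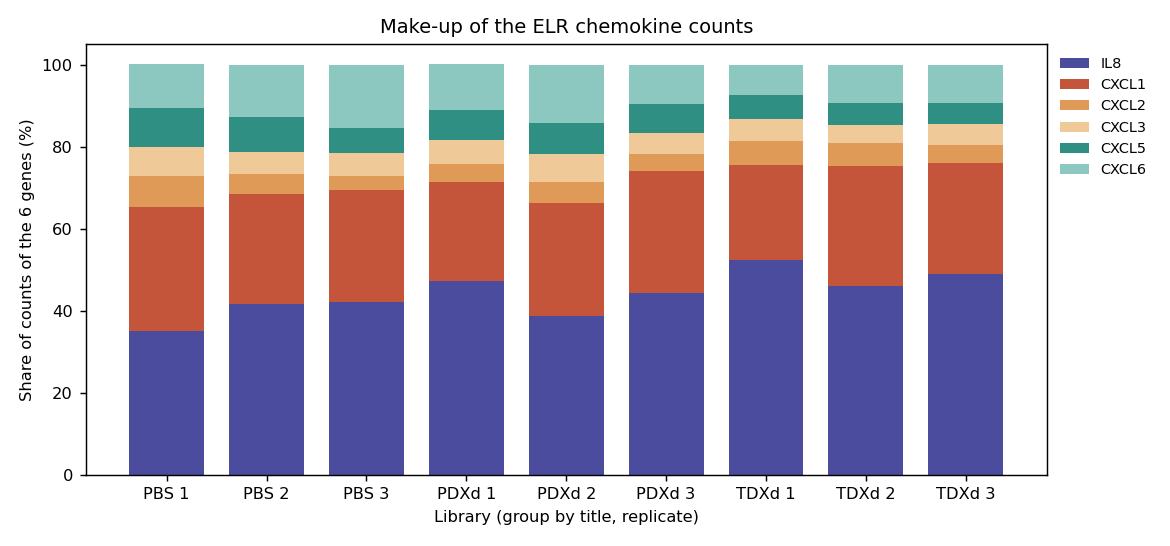
Share of each gene in the summed counts of the 6 ELR chemokines, in percent, for each of the 9 libraries. IL8 takes the largest share in every library, from 35.0% in PBS replicate 1 to 52.3% in TDXd-titled replicate 1, and the CXCL5 and CXCL6 segments are smallest in the TDXd-titled libraries.

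Levels were also divided by exon length, with all exons of a gene's transcripts merged (GENCODE v44, another annotation than that of the tables). For CXCL3 this merged length, 2219 bases, equals its whole listed span (74902306 to 74904524). Introns are thus counted there, and its level per kb may be understated. Orders between genes hold for these lengths only, and other lengths were not tried. The order of levels changed with treatment because CCL20 crossed the ELR genes. In PBS, CXCL1 was at 169 ± 101 and IL8 at 118 ± 48.2 CPM per kb, followed by CXCL6 at 48.1 ± 16.5, CXCL2 at 33.9 ± 29.6, CCL20 at 29.9 ± 4.76, CXCL5 at 27.9 ± 19.2 and CXCL3 at 22.8 ± 16.3. Within single PBS libraries, CXCL1 was above IL8 in 3 of 3 (1.65, 1.24 and 1.22 times), IL8 above CXCL6 in 3 of 3 and CXCL5 above CXCL3 in 3 of 3. CXCL6 was above CXCL2 in 2 of 3 libraries, CXCL2 above CCL20 in 1 and CCL20 above CXCL5 in 2, so these neighbours kept no fixed order. In PDXd-titled xenografts CCL20 came first at 72.7 ± 9.69 CPM per kb, before CXCL1 at 49.9 ± 6.49 and IL8 at 42.2 ± 6.86, with the other ELR genes between 6.80 and 14.2. In TDXd-titled xenografts CCL20 was at 75.3 ± 1.51 CPM per kb, CXCL1 at 33.8 ± 2.41 and IL8 at 33.2 ± 4.28, with the other ELR genes between 3.88 and 7.42. CCL20 was above CXCL1 in every treated library, while CXCL1 was above IL8 in 2 of 3 libraries of each treated group.

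Profiles over the 9 libraries were compared by the root mean square difference of centred log2 CPM, where 0 means that 2 genes move in parallel. CXCL3 and CXCL5 were the closest pair (0.194) and ELR pairs ranged up to 0.511 for CXCL2 and CXCL6. Pairs of an ELR gene with CCL20 ranged from 1.44 to 1.78. Among genes that are no members, the profiles most like the mean of all 7 were ENTPD1 (0.185), an ectonucleotidase, ABCC2 (0.188), an efflux transporter, MTHFD2L (0.195), a mitochondrial folate enzyme, AGPAT9 (0.197), an acyltransferase, and VEGFC (0.20), a lymphatic growth factor. VEGFC was 157 ± 69.7 CPM in PBS, 62.8 ± 1.1 in PDXd-titled and 55.4 ± 4.71 in TDXd-titled xenografts (n = 3 each).

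MTHFD2L is also the next listed gene after CXCL2 on chromosome 4, so the surroundings of the cluster were examined. Of 15 other genes listed within 1 Mb of the ELR span, 12 were tested with both conjugates against PBS, 7 were lower and 1 was higher, beside 17.1% lower and 14.8% higher among all genes. MTHFD2L fell from 41.5 ± 24 CPM (n = 3) to 13.9 ± 0.751 CPM (n = 6; log2 fold change -1.60, SE 0.26, adjusted p 0.000807), and its change was -1.0 without PBS replicate 1. PARM1, which encodes a mucin-like membrane protein, fell by 2.40 on the log2 scale (SE 0.33, adjusted p 0.000321).

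A group of EGF-family ligands lies beyond MTHFD2L. AREG fell by 2.31 (SE 0.457, adjusted p 0.00237; -1.27 without PBS replicate 1) and EREG by 1.69 (SE 0.365, adjusted p 0.00385) on the log2 scale, and EPGN was also called lower (log2 fold change -1.60, adjusted p 0.000683). Levels in PBS were low, at 3.84 ± 3.40 CPM for AREG and 0.831 ± 0.255 CPM for EREG, which averaged 41.4 counts. AREG is uncertain, as a near-identical copy, AREGB, is listed. BTC was the 1 gene called higher (0.78, SE 0.169, adjusted p 0.00369), and EPGN and BTC were named after their values were seen. On the other side, RASSF6, also named after its values were seen, was called lower (-0.72, SE 0.183, adjusted p 0.00856). AFP was called lower there at a mean of 20.7 counts (-2.04, SE 0.765, adjusted p 0.0464), a call lost in 7 of 11 alternatives. PPBP, a platelet chemokine and the 1 listed gene within the ELR span that is no member, was at 0.328 ± 0.207 CPM in PBS and not called (0.17, SE 0.539, adjusted p 0.806).

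**Figure D4:**
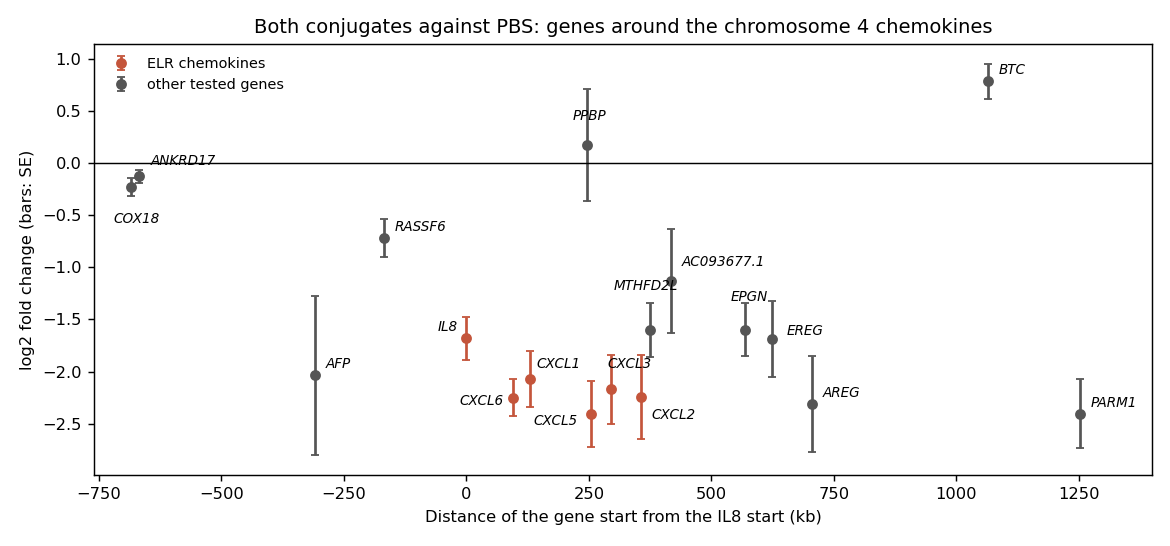
Log2 fold change with both conjugates against PBS (bars of 1 SE) of the ELR chemokines and the other tested genes within 1 Mb, by distance of the gene start from the IL8 start in kb. The ELR genes lie between -2.40 and -1.68, MTHFD2L, EPGN, EREG and AREG follow below 0 to their right, and PPBP, within the cluster, lies near 0.

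The next question was how genes of the same pathway behaved. Of 120 tested genes on 12 lists of related genes, 56 were called with both conjugates against PBS, 30 higher and 26 lower (46.7%; median log2 fold change 0.174). Among all genes 31.8% were called, with a median of -0.0179, and the counts of each list are to be read beside these values. The lists were chosen with earlier results of these data known, so their counts and p-values are descriptive. Where genes outside the naming rule complete a count below, they were named after their values were seen.

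Receptors for these chemokines were scarce. CXCR1, CCR6 and ACKR1 were not listed in both tables, and CXCR2 was at 0.385 CPM in PBS and below the filter for testing. ACKR3, an atypical receptor that scavenges CXCL11 and CXCL12, was called lower (log2 fold change -0.81, SE 0.203, adjusted p 0.00798), with overlapping groups.

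Other CXC chemokines went the opposite way where they were called. Of 8 tested, 5 were higher and 0 were lower by edgeR (median 1.41). At an unadjusted p under 0.05 these were 7 and 0, and DESeq2 called 7 and 0. CXCL14, an epithelial chemokine, rose from 17.5 ± 2.87 CPM in PBS to 70.4 ± 27.3 in PDXd-titled and 67.0 ± 8.92 in TDXd-titled libraries (log2 fold change 1.95, SE 0.243, adjusted p 0.00019). CXCL16, the membrane-bound ligand of CXCR6, rose from 35.8 ± 9.37 to 104 ± 15.0 and 102 ± 5.10 CPM (1.5, SE 0.166, adjusted p 9.98e-05). CXCL12, the stromal ligand of CXCR4, was also higher (1.83, SE 0.443, adjusted p 0.00667), and 2.76 without PBS replicate 1. CXCL9 and CXCL17, the others called, had means of 42.0 and 84.6 counts.

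Among the other chemokine families, 4 of 11 tested genes were higher and 1 was lower (median 1.11). CCL5, which attracts T cells and monocytes, rose from 6.11 ± 1.0 CPM to 40.4 ± 8.29 in PDXd-titled and 28.8 ± 4.05 in TDXd-titled libraries (log2 fold change 2.46, SE 0.172, adjusted p 1.04e-05). CCL2, CCL17 and CCL25 were the others called higher and CCL22 the one called lower, at means of 11.1 to 57.9 counts. 

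Of the listed upstream cytokines, a mixed list that includes IL-1 and TNF, 4 of 10 tested were lower and 2 higher (median -0.564). IL1A, an alarmin released from dying epithelial cells, fell from 87.2 ± 74.2 CPM in PBS to 7.05 ± 1.3 in PDXd-titled and 4.39 ± 1.08 in TDXd-titled libraries (log2 fold change -4.0, SE 0.427, adjusted p 8.43e-05). IL1B, the secreted form of IL-1, fell from 159 ± 112 to 22.7 ± 4.95 and 17.0 ± 3.10 CPM (-3.04, SE 0.357, adjusted p 0.00014). PBS replicate 1 was again highest, at 3.83 and 2.94 times the mean of the other PBS libraries, and without it the changes were -3.01 and -2.30. LIF, an IL-6 family cytokine, fell by 0.80 on the log2 scale (SE 0.107, adjusted p 0.000275). LTB was the other gene called lower, and TNF and TNFSF13B were called higher.

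Of the cytokine receptors, Toll-like receptors (TLR) and adaptors, 5 of 20 were higher and 1 was lower (30.0% called, near the 31.8% of all genes; median 0.435). TLR5, the flagellin receptor, rose by 2.40 on the log2 scale (SE 0.352, adjusted p 0.000462). IL17RC, a subunit of the IL-17 receptor, rose by 0.97 (SE 0.0839, adjusted p 2.56e-05) and IRAK2, a kinase downstream of the IL-1 receptor, by 0.83 (SE 0.117, adjusted p 0.000368). TLR3 and RIPK1 were the others called higher, and IL1RAP, the co-receptor for IL-1, the one called lower.

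Genes of the NF-kB machinery itself seldom passed the fold minimum. Neither edgeR nor DESeq2 called any of 7 tested IKK and related kinases at the fold minimum, while 4 had an adjusted p of at most 0.05 in edgeR and the same 4 an unadjusted p under 0.05, 2 of them higher and 2 lower. Of 5 NF-kB subunits 1 was higher, RELB (log2 fold change 0.72, SE 0.129, adjusted p 0.00136), and it fell under the fold minimum without PBS replicate 1 (0.56). In all, 3 of 5 had an adjusted p of at most 0.05, the others being NFKB2 (0.33, adjusted p 0.00538, higher in every treated library) and NFKB1 (-0.21, adjusted p 0.0172, lower in every treated library).

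The inhibitors and feedback genes of NF-kB divided, with 3 of 11 lower and 2 higher. TNFAIP3, which encodes the ubiquitin-editing enzyme A20, fell from 110 ± 46.0 CPM to 44.4 ± 2.18 and 44 ± 4.0 (log2 fold change -1.34, SE 0.198, adjusted p 0.000484). NFKBIZ, a nuclear cofactor for a subset of NF-kB targets, fell by 1.19 on the log2 scale (SE 0.149, adjusted p 0.000195) and NFKBID by 1.15 (SE 0.288, adjusted p 0.00818). NFKBIA and NFKBIE, which encode inhibitors that hold NF-kB in the cytoplasm, rose by 0.79 (SE 0.0893, adjusted p 0.000111) and 1.09 (SE 0.0867, adjusted p 1.7e-05).

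Other NF-kB target genes also moved in both directions, with 7 of 20 higher and 5 lower (median 0.182). CSF3, the granulocyte growth factor G-CSF, fell by 3.90 on the log2 scale (SE 0.649, adjusted p 0.000904). Its level in PBS replicate 1 was 7.40 times the mean of the other PBS libraries, and its change was -2.23 without that library. IER3, BCL2A1, CSF2 and CD83 were the others called lower. SAA1, an acute-phase protein, rose from 7.01 ± 1.29 CPM to 43.0 ± 11.4 and 38.5 ± 6.20 (2.52, SE 0.203, adjusted p 1.89e-05). TRAF1, an adaptor of TNF receptors, rose from 15.2 ± 7.16 to 81.7 ± 17.4 and 86.6 ± 6.92 CPM (2.45, SE 0.312, adjusted p 0.000211). BIRC3, SOD2, VCAM1, CSF1 and C3 were the others called higher, and IL6 was not called (-0.19, SE 0.252, adjusted p 0.54).

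**Figure D5:**
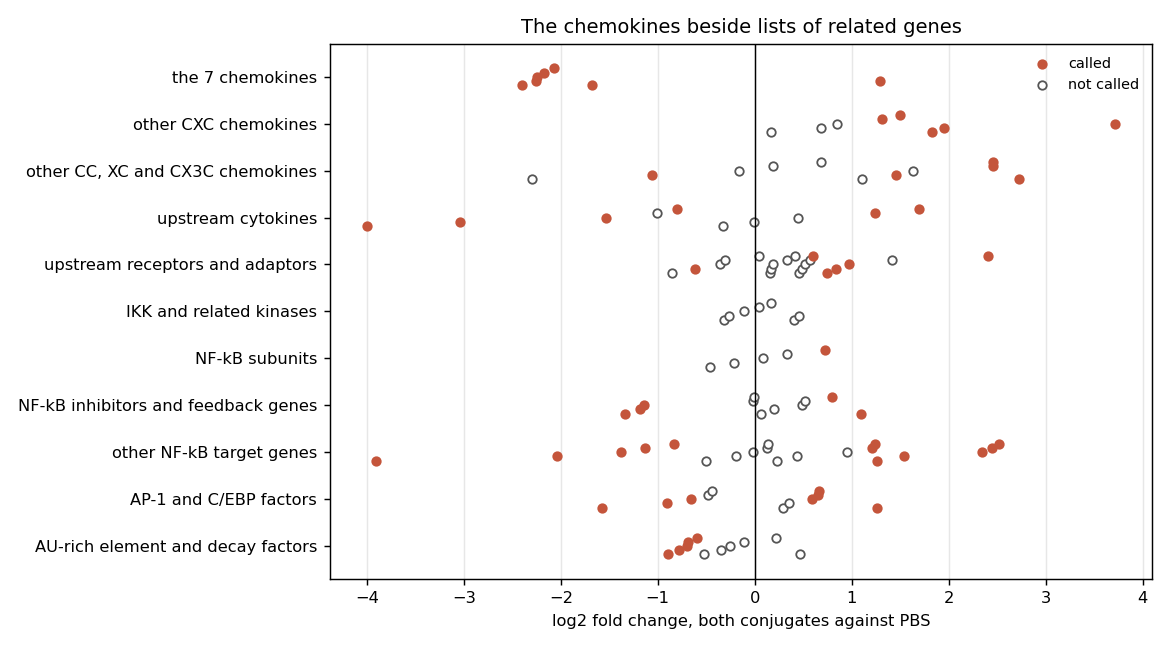
Log2 fold change with both conjugates against PBS of the 7 chemokines and of tested genes on 10 of the lists, 1 point per gene; filled points were called by edgeR. Other CXC chemokines called lie above 0, while upstream cytokines, NF-kB feedback genes and other NF-kB targets hold called genes on both sides.

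Of the AP-1 and C/EBP factors, 4 of 11 were higher and 3 lower. FOSL1, an AP-1 subunit of the FOS family, fell from 167 ± 52.0 CPM to 57.3 ± 9.69 and 56.6 ± 3.07 (log2 fold change -1.58, SE 0.17, adjusted p 8.68e-05). JUND rose from 52.2 ± 10.3 to 122 ± 6.63 and 132 ± 3.83 CPM (1.26, SE 0.118, adjusted p 3.92e-05) and ATF3, a stress-induced factor, rose by 0.66 on the log2 scale (SE 0.0823, adjusted p 0.00019). CEBPB and CEBPD were also called higher, and FOSB and EGR1 lower.

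Factors that bind AU-rich elements or degrade such messages were lower in 5 of 11 cases and higher in 0 by edgeR (median -0.521). DESeq2 called 5 and 0, and 8 and 2 had an unadjusted p under 0.05. KHSRP, which recruits decay enzymes, fell by 0.90 on the log2 scale (SE 0.106, adjusted p 0.00015) and TIAL1, a translational repressor, by 0.79 (SE 0.111, adjusted p 0.000376). ZFP36L2 fell by 0.70 (SE 0.129, adjusted p 0.0016) but fell under the fold minimum without PBS replicate 1 (-0.50). HNRNPD and ZC3H12A completed the list of those called.

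Proteases that trim chemokines were the last list, with 3 of 5 tested genes lower by edgeR and 2 by DESeq2. ANPEP, the aminopeptidase CD13, which shortens chemokines at their amino terminus, was 203 ± 76.1 CPM in PBS, 18.1 ± 2.78 in PDXd-titled and 9.45 ± 0.172 in TDXd-titled xenografts. It fell by 3.98 on the log2 scale with both conjugates (SE 0.194, adjusted p 3.89e-06). It was also the 1 list gene called between the conjugates, 0.94 higher on the log2 scale in PDXd-titled xenografts (adjusted p 0.0426), a difference of the size seen for CXCL5 and CXCL6. This call was lost without PDXd-titled replicate 1 or any one TDXd-titled library. MMP1, an interstitial collagenase, fell by 2.52 (SE 0.598, adjusted p 0.00609), but PBS replicate 1 was 8.88 times the mean of the other PBS libraries and its change was -0.63 without that library. MMP9 was the third called.

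Markers of other cell types moved beside these results, and their part in them was not tested. Summed over 8 of 10 listed neutrophil markers, levels were 149 to 616 CPM in PBS and 1192 to 1674 in treated libraries, mostly from S100A9, which epithelial cells also express. Of 6 neutrophil markers tested with both conjugates against PBS, 4 were called higher and 0 lower, beside 14.8% higher among all genes. These were S100A8 (log2 fold change 1.42), S100A9 (1.82), ITGAM (1.44) and CAMP (2.03, at a mean of 11 counts). CSF3R was at 0 to 0.0544 CPM in PBS, 0.0305 to 0.0923 in PDXd-titled and 0.0135 to 0.18 in TDXd-titled libraries, and MPO and CEACAM8 were not listed. Summed over 6 of 10 macrophage markers, levels were 5.63 to 9.31 CPM in PBS, 15.2 to 22.7 in PDXd-titled and 25.4 to 35.4 in TDXd-titled libraries, without CD163, MRC1, ITGAX and TYROBP. In treated libraries this sum came mostly from CSF1R and LYZ. Of 5 macrophage markers tested with both conjugates against PBS, 3 were called higher. EMR1 was called lower (log2 fold change -1.265, SE 0.356, edgeR adjusted p 0.0139), with overlapping groups. Fibroblast markers (8 of 8) were 1053 to 2019, 1231 to 2139 and 2073 to 2234 CPM, mostly from COL1A1, which was not called. Of the 8, with both conjugates against PBS, 4 were called higher (COL1A2, COL3A1, FAP and POSTN) and 0 lower. Endothelial markers (5 of 6, without PECAM1) were 4.64 to 9.54, 6.25 to 11.0 and 9.13 to 9.36 CPM, and keratinocyte markers (3 of 6) were 193 to 976, 121 to 215 and 178 to 219 CPM. In the same comparison 1 of 5 endothelial markers, TEK, was called higher and 2 of 3 keratinocyte markers were called lower. Skeletal muscle markers (8 of 8) were 8.93 to 47.2 CPM in PBS, 185 to 226 in TDXd-titled and 90.9 to 3100 in PDXd-titled libraries.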

How the data were processed

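Per the study's methods, reads were trimmed (Cutadapt), aligned (STAR) and assigned to genes (featureCounts). The deposited tables hold raw counts for 16098 and 16114 genes. Use of strand and removal of mouse reads are not given in the sources used here.

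Counts were tested in edgeR 4.0.16 (R 4.3.3) with TMM, filterByExpr, the two-sided quasi-likelihood F test and Benjamini-Hochberg adjustment over all genes. Each conjugate comparison used its 6 libraries, and both against PBS all 9. CPM were TMM-scaled. Members and lists were chosen with earlier results of these data known. Named were, per list, up to 3 called genes with the largest change that averaged 100 counts or more without overlap, list genes called between conjugates, the 5 largest called changes within 1 Mb and the 5 closest profiles. Alternatives were DESeq2 1.42.0, RLE size factors, other count filters (none, or 10 counts throughout), no fold minimum, 1 fit of all libraries, a block on the animal code, 2 Mb for neighbours and leaving out each library. The scripts were tested on simulated data.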

Additional observations from a re-analysis of the deposited data

Results flagged for a closer look

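Of the 7 chemokines, CXCL5 and CXCL6 differed between the treated groups in edgeR's direct comparison, each by 0.94 on the log2 scale (PDXd-titled minus TDXd-titled). Each was higher in all 3 PDXd-titled libraries than in all 3 TDXd-titled libraries. Both genes were chosen with these values known. With a block on the animal code, CXCL5 was still called and CXCL6 was not. Neither was called in 1 fit of all 9 libraries, without PDXd-titled replicate 1 or without any one TDXd-titled library. ANPEP, on the list of chemokine-cleaving proteases, differed by 0.94 as well, with no overlap (quasi-likelihood test, adjusted p 0.0426). The ANPEP call was lost in the same fits and with the block. Titles and treatment fields disagree, so which conjugate goes with the higher levels is unresolved.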

How the results depend on the processing

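Over all alternatives no called value changed direction, and with both conjugates against PBS all 7 members were called throughout. Leaving out single libraries gave 3 to 7 members called for PDXd-titled against PBS, 6 to 7 for TDXd-titled, and 0 to 2 between the conjugates, and 24 to 51, 32 to 52 and 0 to 2 list genes. In 1 fit of all 9 libraries, 0 members and 0 list genes were called between the conjugates. Under no fold minimum, 80 list genes were called with both conjugates in place of 56. DESeq2 gave MMP1 no adjusted p. The digit in the animal code did not pair the libraries: correlations of deviations had a median of 0.0313 (-0.125 to 0.211) for the same digit and -0.0595 (-0.308 to 0.249) for different digits. With the replicate block, 0 list genes were called between the conjugates. The block also left 2 members called between them, CXCL5 (0.91) and CXCL1 (0.64), with CXCL6 (0.93) lost, and 6 for TDXd-titled against PBS, with CXCL2 (-1.86) lost. The causes of these changes were not tested. With 3 libraries per group, of which PBS replicate 1 stands apart, the size of the ELR fall is known less well than its direction.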

Other observations

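Since CCL20 moved against the ELR genes, the mean of all 7 mixes opposite profiles, and likeness was also computed for each side alone, a choice made after seeing the data. Among the genes whose profile over the 9 libraries was closest to CCL20 were THEM6 (root mean square difference 0.0799), KRT8, a keratin of simple epithelia (0.0856), CYB5R1 (0.0863) and JUND (0.0895). KRT8 was 461 ± 58.5 CPM in PBS, 1124 ± 92.0 in PDXd-titled and 1186 ± 89.6 in TDXd-titled xenografts (n = 3 each). Among those closest to the mean of the 6 ELR chemokines were PSRC1, a spindle protein (0.201), FABP5, a fatty acid carrier (0.211), GLDC, the glycine decarboxylase (0.223), and WNT10B, a Wnt ligand (0.228). FABP5 fell from 115 ± 64.0 CPM in PBS to 29.1 ± 5.88 in PDXd-titled and 22.5 ± 1.80 in TDXd-titled libraries.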
